A study of Caenorhabditis elegans with 9 samples.

Results

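P granules are RNA and protein condensates that mark the germ line of Caenorhabditis elegans throughout its life. They are built by PGL proteins, which form the scaffold, and by GLH proteins, RNA helicases of the Vasa family, and they lie at the nuclear pores of germ cells, where they take part in small RNA pathways. In the early embryo they are sorted into the germ line precursors and dissolve or are degraded in the cells that form the soma. The 7 genes described here are the scaffold genes pgl-1 and pgl-3, the helicase genes glh-1, glh-2 and glh-4, deps-1, whose protein promotes PGL-1 assembly and glh-1 expression, and meg-1, which encodes a disordered protein of embryonic P granules needed with its relatives for fertility. They were taken by their public names in the WBcel235 annotation, each matched 1 row, and they are 7 of 28749 genes in the deposited table.

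RNA sequencing was done on poly(A) RNA of whole worms in 3 groups of 3 libraries. The wild-type strain was N2 (Bristol). The second strain, WLZ1, carries wlzIs1, an integrated transgene in which the worm's snb-1 promoter, from a synaptobrevin gene, drives wild-type human LRRK2, a kinase gene linked to Parkinson's disease, in all neurons. WLZ3 carries wlzIs3, the same kind of transgene with the G2019S form of LRRK2. Both transgenes hold the marker lin15(+) and N2 does not, so against N2 LRRK2 and the marker cannot be told apart. Worms of every strain were kept at 20 °C with the bacterium OP50 as food. LRRK2 is therefore driven in neurons, while the genes described here belong to the germ line. In which cells the marker is expressed was not examined. The sources used here state no stage, age or sex, and name 2 sequencing platforms without saying which library ran on which. Separate cultures are not stated for the replicates either, so each p-value reflects the spread among these libraries alone, possibly a technical one. Both comparisons against N2 use the same 3 N2 libraries. In whole-animal RNA, more germ cells and more RNA per germ cell cannot be told apart.

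All 7 genes encode proteins, and 4 of them lie on chromosome I. In the coordinates of the Ensembl annotation of WBcel235, glh-1 (T21G5.3) spans I 6854478 to 6857536, glh-2 (C55B7.1) I 6513928 to 6517507, glh-4 (T12F5.3) I 3727027 to 3731179 and deps-1 (Y65B4BL.2) I 506473 to 509056. pgl-1 (ZK381.4) spans IV 6974441 to 6977318, pgl-3 (C18G1.4) V 4755979 to 4758587 and meg-1 (K02B9.1) X 13927036 to 13929634. Their exons sum to between 2044 bases (deps-1) and 3747 bases (glh-4), in 6 to 12 exons. The gene deps-1 shares 109 exon bases with Y65B4BL.7 on the opposite strand. The strand setting of the counting is not stated, so part of the deps-1 value could come from Y65B4BL.7. The other 6 overlap no annotated gene. The GLH genes are related in sequence and the MEG genes likewise, so reads that match 2 of them may have been split or dropped.

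The genes were well covered. The deposited unit is FPKM, reads scaled by gene length and library total, which allows levels of different genes to be set side by side. Whole reads could be recovered from all 63 values of the 7 genes, from 3880 reads to 24648 reads per gene and library. The library totals, inferred from the FPKM values, were 38128734 to 53336537 reads. All 7 passed the filter on low values (at least 1 FPKM in at least 3 libraries), and none passed through 1 group alone, since the lowest value of any member in any library was 23.3 FPKM.

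In N2, pgl-1 was the most abundant of the 7 genes and glh-4 the least. Mean levels were 144 ± 7.95 FPKM for pgl-1, 108 ± 7.01 for deps-1, 106 ± 14.1 for glh-1, 90.2 ± 6.98 for pgl-3, 82.5 ± 4.85 for meg-1, 73.6 ± 5.09 for glh-2 and 25.1 ± 1.94 for glh-4 (mean ± SD, n = 3 here and throughout). Among all genes above 0 these levels stood between the 79.0th percentile (glh-4) and the 96.6th (pgl-1). In that order the libraries of deps-1 and glh-1, of glh-1 and pgl-3, and of pgl-3 and meg-1 overlapped, and the other neighbours did not. WLZ1 had the same order of means. In WLZ3, deps-1 stood behind glh-1 and pgl-3, and its libraries overlapped those of pgl-3 but not those of glh-1.

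**Figure D1:**
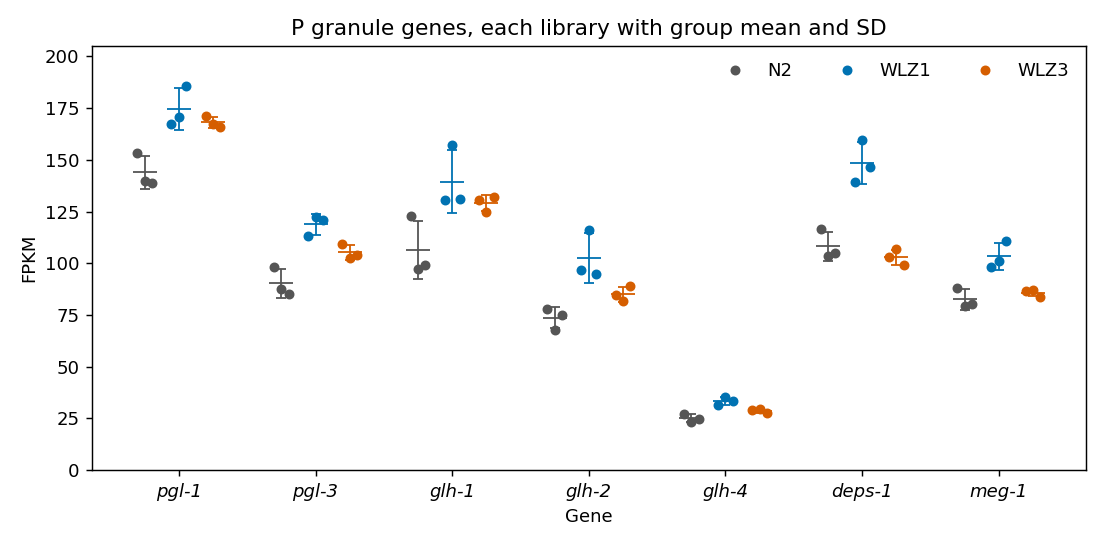
Levels of the 7 P granule genes in FPKM (linear axis from 0) in each library of N2 (grey), WLZ1 (blue) and WLZ3 (orange), with the group mean (wide mark) and SD (bar). WLZ1 libraries lie above all N2 libraries for every gene, while deps-1 in WLZ3 (99.4 to 107 FPKM) overlaps the lower end of N2 (103.7 to 116.4 FPKM).

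All 7 P granule genes rose in WLZ1 against N2, by 1.21-fold (pgl-1) to 1.39-fold (glh-2). The comparison set a strain with both wild-type LRRK2 and the marker lin15(+) against N2, so LRRK2 and the marker cannot be told apart in it. Changes were tested with limma on log2(FPKM + 1) over 14862 genes, and a gene was called at a Benjamini-Hochberg adjusted p under 0.05. Calls were common in this comparison: 67.6% of all genes tested were called, 26.6% higher and 41.1% lower. The 7 calls among 7 genes are read against that background, and changes of the members stood between the 82.7th and the 92.5th percentile of all changes.

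The scaffold genes rose in every WLZ1 library. pgl-1 stood at 153, 139.8 and 139 FPKM in N2 and at 167, 171 and 186 in WLZ1, groups that did not overlap, and its log2 change was 0.28 ± 0.054 (SE, limma adjusted p = 0.00156). pgl-3, a paralogue that can form granules with or without PGL-1, stood at 98.2, 87.5 and 85.0 FPKM in N2 and 113, 122 and 121 in WLZ1, a log2 change of 0.40 ± 0.060 (limma adjusted p = 0.000386). For both genes replicate 1 was the highest N2 library and still lay below the lowest WLZ1 library.

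The helicase genes rose as well, with more spread among libraries. glh-1, the main Vasa helicase of P granules, stood at 123, 97.4 and 99.1 FPKM in N2 and 130.4, 157 and 131 in WLZ1 (log2 change 0.39 ± 0.098, limma adjusted p = 0.00638). The gap between the highest N2 and the lowest WLZ1 library was small for glh-1, whose N2 replicate 1 and WLZ1 replicate 2 stood apart from the other libraries of their groups. glh-2 stood at 77.9, 68.0 and 74.9 FPKM in N2 and 96.6, 116 and 94.8 in WLZ1 (log2 change 0.47 ± 0.083, limma adjusted p = 0.000901). The least abundant helicase, glh-4, stood at 27.2, 23.3 and 24.9 FPKM in N2 and 31.7, 35.4 and 33.6 in WLZ1 (log2 change 0.41 ± 0.067, limma adjusted p = 0.000596). Neither glh-2 nor glh-4 had overlapping groups, and WLZ1 replicate 2 was the highest library for all 3 helicases.

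deps-1 and meg-1 also rose. deps-1 stood at 116.4, 103.7 and 104.8 FPKM in N2 and 139, 159.6 and 146 in WLZ1 (log2 change 0.45 ± 0.063, limma adjusted p = 0.000243). meg-1 stood at 88.1, 79.3 and 80.1 FPKM in N2 and 98.2, 101 and 111 in WLZ1 (log2 change 0.32 ± 0.057, limma adjusted p = 0.000952). The groups did not overlap for either gene, so all 7 members had separate groups, as did 70.8% of all genes tested, 28.3% with WLZ1 higher. The 7 calls were also made without any 1 library and under every other alternative tried. Scaling sets the zero line. As deposited, the median change over all genes was -0.13 and 39.3% of all calls were higher. Median-of-ratios scaling moved these to 0.03 and 53.6%, and quantile normalization to 0.07 and 56.5%. Relative to the deposited median, the members' changes were 0.41 (pgl-1) to 0.60 (glh-2).

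In WLZ3 the rise against N2 was smaller and passed the test for the scaffold genes alone among the 7 members. pgl-1 stood at 171, 167 and 166 FPKM in WLZ3 (1.17-fold of N2, log2 change 0.22 ± 0.054, limma adjusted p = 0.0132) and pgl-3 at 109.3, 102.6 and 103.8 (1.17-fold, 0.22 ± 0.060, limma adjusted p = 0.0209). Neither gene's WLZ3 libraries overlapped N2. In this comparison 36.0% of all genes tested were called, 13.3% higher and 22.7% lower, so 2 calls of 7 are near the background. The share of all calls that were higher was 36.9% as deposited, 49.8% after median-of-ratios scaling and 51.3% after quantile normalization. Both calls were lost in some fits that left out 1 library. Calls over all genes also fell without N2 replicate 2 or 3, from 5354 to 3013 and 3204. The pgl-1 call was lost without N2 replicate 2 or 3 (limma adjusted p = 0.0509 and 0.0511), and the pgl-3 call without N2 replicate 2 or 3 or WLZ3 replicate 1 (0.0724, 0.0753 and 0.0692) and with quantile normalization (0.0755).

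The helicases gave values close to the threshold in WLZ3. glh-1 stood at 131, 125 and 132 FPKM (log2 change 0.28 ± 0.098, limma adjusted p = 0.0501), glh-2 at 84.9, 81.6 and 88.9 (0.21 ± 0.083, adjusted p = 0.0763) and glh-4 at 29.2, 29.5 and 27.5 (0.19 ± 0.067, adjusted p = 0.0526). None of the 3 had WLZ3 libraries that overlapped N2, a separation that 51.9% of all genes tested showed, 22.2% with WLZ3 higher. The glh-1 and glh-4 values passed the threshold without N2 replicate 1 (adjusted p = 0.00887 and 0.0201), and all 3 passed without WLZ1 replicate 2, whose spread enters the shared error (0.03, 0.024 and 0.0478). With median-of-ratios scaling glh-1 and glh-4 passed (0.0424 and 0.0416), and in a fit of the 2 groups alone glh-1 and glh-2 did (0.0483 and 0.0389). The difference in call between the scaffold genes and the helicases was not itself tested.

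deps-1 and meg-1 were not called in WLZ3 against N2. deps-1 stood at 103, 107 and 99.4 FPKM (log2 change -0.07 ± 0.063, limma adjusted p = 0.396) and meg-1 at 86.49, 87.002 and 83.88 (0.06 ± 0.057, adjusted p = 0.453). The meg-1 libraries of WLZ3 lay within the N2 range. For deps-1 the groups overlapped, with 1 WLZ3 library within the N2 range and the other two below it. The deps-1 change was below 0 under every alternative, and the meg-1 change turned to -0.0057 with quantile normalization. Without any 1 library, 0 to 5 of the 7 members were called higher in WLZ3.

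**Figure D2:**
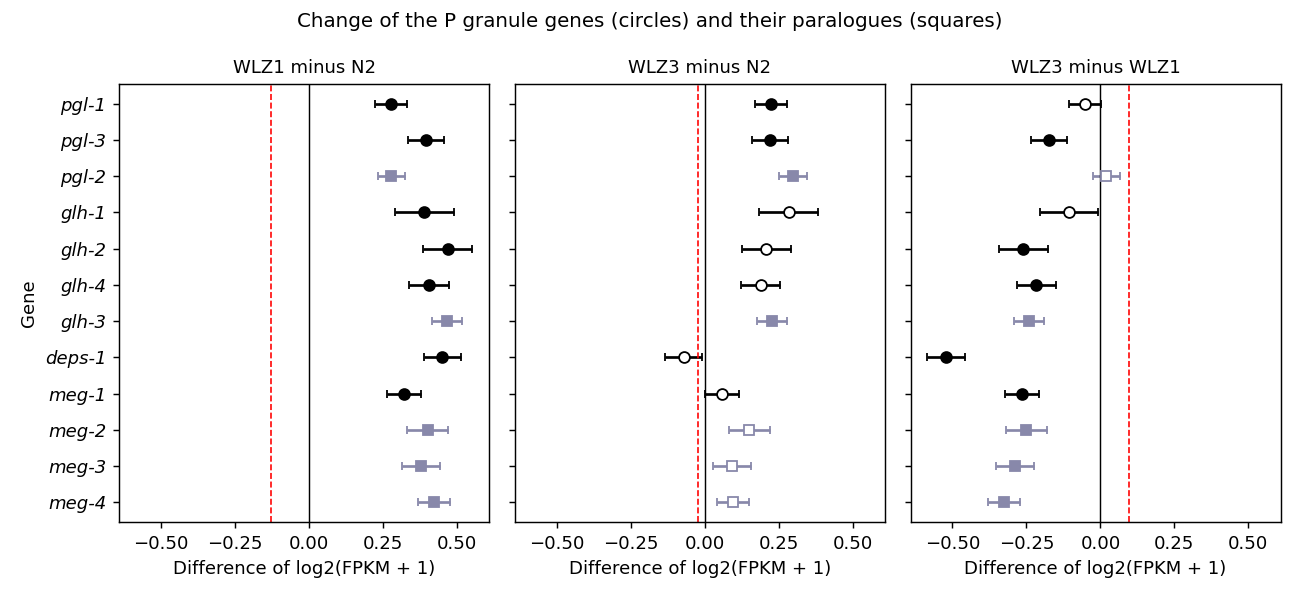
Difference of log2(FPKM + 1) with its standard error in the 3 comparisons, for the 7 P granule genes (black circles) and their 5 paralogues (grey squares). Filled symbols were called at a limma adjusted p under 0.05, the black line is 0 and the dashed red line the median of all 14862 genes tested. All symbols are filled and right of 0 in the first panel, while deps-1 lies farthest left in the third (-0.52).

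Between the strains, 5 of the 7 genes were lower in WLZ3 than in WLZ1, most of all deps-1. The comparison set the strain with the G2019S form of LRRK2 against the strain with the wild-type form, with the levels of LRRK2 itself not analysed here. Each form is carried by a single strain with its own transgene. The form therefore cannot be told apart from other differences between the strains. deps-1 was 1.44-fold lower in WLZ3 (log2 change -0.52 ± 0.063, limma adjusted p = 0.000406) and meg-1 was 1.21-fold lower (-0.26 ± 0.057, adjusted p = 0.00653). Both calls were made without any 1 library and under every other alternative. Calls were made for 42.1% of all genes tested (29.6% higher, 12.6% lower), and the deps-1 change stood at the 5.14th percentile of all changes.

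The other members differed less between the strains. glh-2 (log2 change -0.26 ± 0.083, limma adjusted p = 0.0322), glh-4 (-0.22 ± 0.067, adjusted p = 0.0284) and pgl-3 (-0.17 ± 0.060, adjusted p = 0.0438) were called lower in WLZ3, and glh-1 (-0.11 ± 0.098, adjusted p = 0.407) and pgl-1 (-0.05 ± 0.054, adjusted p = 0.458) were not called. The WLZ3 and WLZ1 libraries overlapped for glh-1 and pgl-1 and were separate for the other 5, as they were for 55.7% of all genes tested, 18.5% with WLZ3 lower. The 3 weaker calls were lost in some fits that left out 1 library. glh-2 lost its call without WLZ1 replicate 2 or any 1 WLZ3 library (adjusted p = 0.0513 to 0.0901), glh-4 without WLZ1 replicate 2 or 3 or WLZ3 replicate 1 or 3 (0.0552 to 0.098), and pgl-3 without N2 replicate 2, WLZ1 replicate 2 or 3 or any 1 WLZ3 library (0.0508 to 0.119). With the replicate number as a block all 3 were lost (0.066, 0.0601 and 0.0728), and glh-2 and pgl-3 were lost with no filter (0.0605 and 0.0731) and with quantile normalization (0.0545 and 0.0603). With median-of-ratios scaling, which moved the median of all genes from 0.096 to -0.02 and the share of calls that were higher from 70.2% to 45.9%, pgl-1 was called lower too (-0.19, adjusted p = 0.0291). Quantile normalization moved that median to -0.02 and that share to 47.9%.

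Among the members, deps-1 held a smaller part of the summed level in every WLZ3 library than in any other library. The 7 genes summed to 599.03 to 683.46 FPKM per library in N2, 776.31 to 862.77 in WLZ1 and 699.33 to 714.24 in WLZ3, and these ranges did not overlap. Of that sum deps-1 held 17.2% ± 0.151 in N2, 18.1% ± 0.383 in WLZ1 and 14.6% ± 0.570 in WLZ3, while pgl-1 held 22.9% ± 0.471, 21.3% ± 1.41 and 23.9% ± 0.152. The level of pgl-1 over that of deps-1 was 1.32, 1.35 and 1.33 in the N2 libraries, 1.20, 1.07 and 1.27 in WLZ1 and 1.66, 1.57 and 1.67 in WLZ3. The WLZ3 ratios lay above all others. So did those of pgl-1 over meg-1 (1.98, 1.92 and 1.98 in WLZ3, at most 1.764 elsewhere) and the pgl-1 part of the sum. The share of all genes with such separations was not computed, so they are descriptions only. The level of glh-1 over that of glh-2 was 1.44 ± 0.126 in N2, 1.36 ± 0.0175 in WLZ1 and 1.52 ± 0.0292 in WLZ3, with N2 ranging across both strains.

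Other germ line genes also rose. Of 33 reference genes of meiosis, germ cell fate and germ line structure, such as the Polycomb gene mes-6, 30 rose in WLZ1 and none fell, with a median log2 change of 0.33, against 0.40 for the members and -0.13 for all genes. In WLZ3, 22 rose and none fell, with a median of 0.18, against 0.21 for the members and -0.02 for all genes. Between the strains 15 were lower in WLZ3 and none higher (median -0.15, members -0.22, all genes 0.096). With median-of-ratios scaling the 3 counts were 33, 26 and 29, and with quantile normalization 32, 18 and 15. Of all genes tested, 26.6% were called higher in WLZ1, 13.3% higher in WLZ3 and 12.6% lower between the strains, as deposited. Of the 33, gld-1 also stands in the list of other germ granule proteins. The summed level of this list was 2071.5 to 2207.26 FPKM in N2, 2734.53 to 2853.86 in WLZ1 and 2431.5 to 2502.57 in WLZ3.

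Set against the germ line signal of the same library, no member passed an exact permutation test between the groups as deposited. With 3 libraries per group, this does not show that the levels were equal. For each gene the mean log2(FPKM + 1) of the 33 reference genes was subtracted. The 3 groups were then compared over all assignments of the 9 libraries to 3 groups of 3, adjusted over the 7 genes. The statistic was the between-group sum of squares, which has no direction. deps-1 stood 1.33 ± 0.0517 log2 units above the reference in N2, 1.46 ± 0.117 in WLZ1 and 1.07 ± 0.0488 in WLZ3 (exact p = 0.00714, adjusted p = 0.05, not under the threshold). Its 3 WLZ3 libraries, at 1.05, 1.13 and 1.04, lay below all 6 others. meg-1 stood at 0.94 ± 0.0432 in N2, 0.94 ± 0.0471 in WLZ1 and 0.81 ± 0.0218 in WLZ3 (exact p = 0.0357, adjusted p = 0.125), again with WLZ3 below all other libraries. The share of all genes with such a separation was not computed on this scale, so these separations are descriptions only.

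By this exact test 0 of the 7 genes passed after adjustment and 2 had an unadjusted p under 0.05. pgl-1 had an adjusted exact p of 0.15, and glh-1, glh-2, glh-4 and pgl-3 had values of 0.462 to 0.704. The deps-1 value ranged from 0.025 (without WLZ1 replicate 3) to 0.1 (without N2 replicate 2 or 3) when 1 library was left out. It was 0.025 after median-of-ratios scaling and 0.0833 after quantile normalization, under which pgl-1 and meg-1 passed instead (both 0.025). For groups of 3 against 3 the smallest exact p is 0.1, so no pair of groups was tested in this way.

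**Figure D3:**
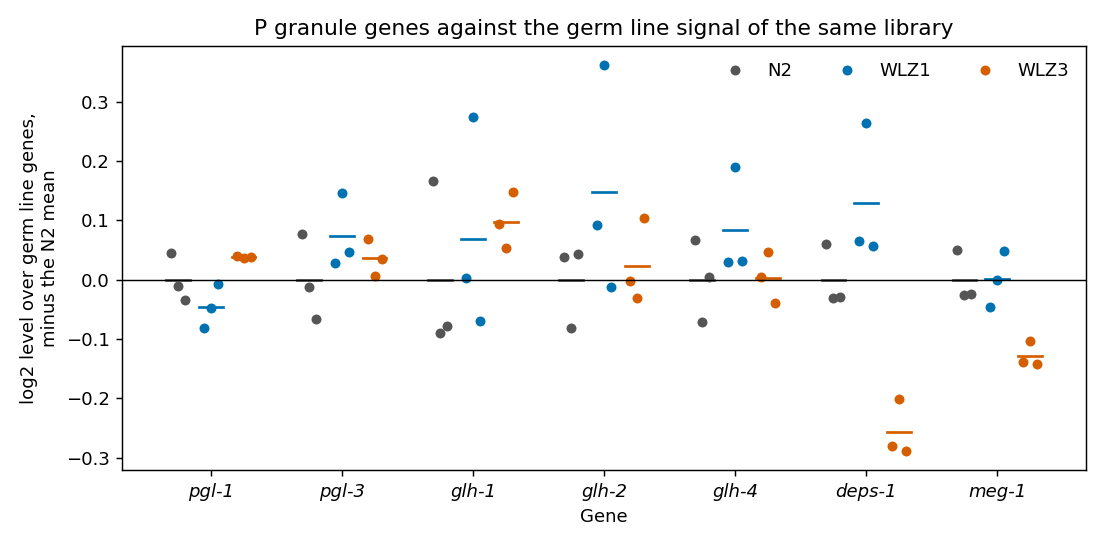
Level of each P granule gene over the mean of 33 germ line reference genes in the same library, in log2 units and with the N2 mean of that gene set to 0; points are libraries, short lines group means. The WLZ3 libraries of deps-1 and meg-1 lie below all N2 and WLZ1 libraries, and those of the other 5 genes lie within the range of N2 and WLZ1 together.

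The paralogues of the members moved in the same directions. glh-3 rose from 24.2 ± 1.46 FPKM in N2 to 33.8 ± 0.424 in WLZ1 (limma adjusted p = 5.87e-05) and 28.5 ± 0.505 in WLZ3 (adjusted p = 0.0106). pgl-2, the PGL gene with a role mainly in the larval and adult germ line, rose from 27.6 ± 0.566 to 33.7 ± 0.712 and 34.2 ± 1.42 (adjusted p = 0.000625 and 0.00268). It was the only one of the 12 genes with a positive value between the strains (0.02, adjusted p = 0.745).

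The MEG paralogues followed meg-1. meg-2 lies 906 bases from meg-1 on the same strand of X and rose from 15.6 ± 1.35 to 20.9 ± 1.12 FPKM in WLZ1 (limma adjusted p = 0.000791), with 17.4 ± 0.308 in WLZ3. meg-3, which encodes a scaffold protein of embryonic P granules, rose from 43.3 ± 3.46 to 56.5 ± 2.50 (adjusted p = 0.000755) and stood at 46.1 ± 2.16 in WLZ3. Its partner meg-4 rose from 21.9 ± 1.16 to 29.6 ± 1.25 (adjusted p = 0.000159) and stood at 23.4 ± 0.566 in WLZ3. None of these 3 was called in WLZ3 against N2 (adjusted p = 0.117, 0.287 and 0.196), and all 3 were lower in WLZ3 than in WLZ1 (adjusted p = 0.0184, 0.00786 and 0.00199).

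Other germ granule proteins gave 26 rises and 1 fall among 29 genes in WLZ1 (median log2 change 0.38) and 19 rises and 1 fall in WLZ3 (median 0.19). The fall was kgb-1, a kinase that binds GLH proteins and also acts in somatic stress responses, from 29.1 ± 1.74 FPKM in N2 to 15.2 ± 0.572 in WLZ1 (limma adjusted p = 4.39e-06) and 21.0 ± 0.429 in WLZ3 (adjusted p = 0.0013). Of the 29 genes, alg-3 and alg-4, Argonautes of spermatogenesis, reached 1 FPKM in WLZ1 alone and passed the filter through that group, so their difference is a description. alg-3 stood at 0.104 ± 0.0944 FPKM in N2 and 1.39 ± 0.0333 in WLZ1, and alg-4 at 0.135 ± 0.172 and 1.31 ± 0.0476. Without these 2 genes, 24 of 27 rose in WLZ1 and 19 of 27 in WLZ3. Of all genes tested, 26.6% were called higher in WLZ1 and 13.3% in WLZ3. Small RNA amplification genes gave 13 rises and no fall among 16 in WLZ1 and 6 rises and no fall in WLZ3 (medians 0.32 and 0.15). Among them ego-1, an RNA-dependent RNA polymerase of the germ line, rose from 17.6 ± 1.70 to 24.4 ± 1.77 FPKM in WLZ1 (adjusted p = 0.000701) and stood at 19.9 ± 0.421 in WLZ3 (adjusted p = 0.109).

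Genes that place or remove P granules in the embryo gave calls in both directions. Of 12 genes that act in their sorting to the germ line precursor, 6 rose and 3 fell in WLZ1 (median log2 change 0.13). The counts were 9 and 1 after median-of-ratios scaling and 5 and 3 after quantile normalization. Of all genes tested, 26.6% were called higher and 41.1% lower as deposited, so the 3 falls were not above the background. mex-5, which encodes an RNA-binding protein that drives granule dissolution at the anterior, rose from 437 ± 8.44 to 589.9 ± 13.7 FPKM in WLZ1 (limma adjusted p = 3.22e-05), and the polarity kinase gene par-1, also used in somatic cells, fell from 35.5 ± 0.0542 to 24.6 ± 0.724 (adjusted p = 1.18e-05). Of 12 genes for removal of PGL proteins by autophagy in somatic cells, 1 rose and 4 fell in WLZ1 as deposited. With median-of-ratios scaling 6 rose and 2 fell, and with quantile normalization 3 rose and 4 fell, so their direction depends on the scaling. The 4 falls as deposited were not above the share of all genes called lower, 41.1%. The rise was in sepa-1, a receptor that bridges PGL-3 to autophagy proteins, from 9.58 ± 0.686 to 12.995 ± 1.51 FPKM (adjusted p = 0.00727), and epg-2, an adaptor of the same process, fell from 80.8 ± 12.4 to 57.4 ± 10.3 (adjusted p = 0.0151), with overlapping libraries.

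**Figure D4:**
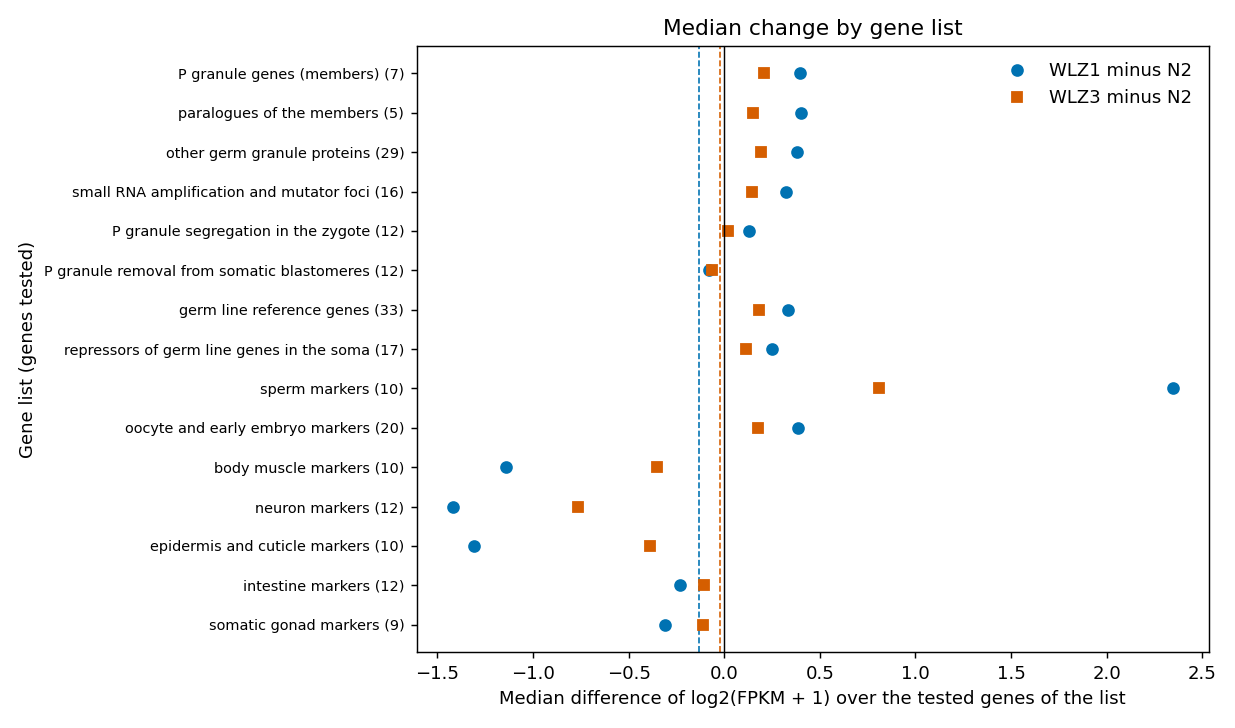
Median difference of log2(FPKM + 1) over the tested genes of each list (number in brackets) for WLZ1 minus N2 (blue circles) and WLZ3 minus N2 (orange squares); dashed lines are the medians of all 14862 genes tested. Some sperm markers passed the filter only through the transgenic strains, so that list's median is not read. P granule genes (0.40 and 0.21) lie beside the other germ line lists and to the right of the neuron, muscle and epidermis markers.

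Markers of other cell types moved with these results. Of 18 sperm markers 10 passed the filter, 3 of them below 1 FPKM in every N2 library, so no count of calls is given for this list. The 18 summed to 73.9 to 82.3 FPKM in N2, against 214 to 258 for WLZ1 and 95.0 to 178 for WLZ3, with 1 of them at 0 in every N2 library. Oocyte and early embryo markers rose in 18 of 20 genes in WLZ1 and 9 of 20 in WLZ3, with sums of 10348.2 to 10906.3, 11897.5 to 13007.1 and 10951.3 to 11322.3 FPKM. Neuron markers fell in all 12 genes in WLZ1 and 11 of 12 in WLZ3, with sums of 221 to 277, 112 to 121 and 158 to 172 FPKM. Body muscle markers fell in 10 of 10 and 6 of 10 genes, with sums of 1262.67 to 1460.17, 605 to 705 and 984 to 1292.04 FPKM. No marker in these last 3 lists was at 0 throughout a group. Beside these counts, 26.6% and 13.3% of all genes tested were called higher in WLZ1 and WLZ3, and 41.1% and 22.7% lower. FPKM is a share of each library, and the part of these lists in the rise of the P granule genes was not tested.

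Marker lists of the remaining tissues moved less evenly. Epidermis and cuticle markers fell in 7 of 10 genes in WLZ1, and 5 fell and 1 rose in WLZ3. Intestine markers fell in 5 of 12 and 1 of 12 genes, beside 41.1% and 22.7% of all genes called lower. Somatic gonad markers are of cells that sheathe and support the germ line. They gave 1 rise and 4 falls among 9 tested genes in WLZ1 and 2 falls in WLZ3, also near those shares. Their sums were 205.7 to 239.5 FPKM in N2, 211 to 242 in WLZ1 and 211 to 224 in WLZ3, ranges that overlapped. The sums do not show the falls of ceh-18 and lim-7. These had log2 changes of -1.325 and -1.168 in WLZ1 (limma adjusted p = 7.89e-06 and 6.21e-05). In WLZ3 the changes were -0.5913 and -0.5641 (limma adjusted p = 0.00326 and 0.0111).

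lin-15B, part of the transgenes' marker, belongs to a set of chromatin genes that keep P granule genes silent in somatic cells. Its N2 libraries held 16.8, 17.8 and 17.9 FPKM, its WLZ1 libraries 87.9, 76.9 and 83.6 and its WLZ3 libraries 37.8, 42.8 and 41.8 (limma adjusted p = 2.72e-07 and 2.42e-05 against N2). Across 17 such repressors, lin-15B included, 14 rose and none fell in WLZ1 and 7 rose and none fell in WLZ3 (median log2 changes 0.25 and 0.11), with 16 and 10 rises after median-of-ratios scaling and 12 and 4 after quantile normalization. As deposited, 26.6% and 13.3% of all genes tested were called higher in WLZ1 and WLZ3. The part of the repressors in the levels of the P granule genes was not tested.

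The genes most like the members over the 9 libraries were sought among all genes tested, by the root mean square difference of centred log2(FPKM + 1) from the mean profile of the 7 members. The 5 closest were F25G6.9 (0.0206 log2 units), asps-1 (0.0207), the paralogue meg-2 (0.0208), F30F8.1 (0.0263) and gld-2 (0.0270), a cytoplasmic poly(A) polymerase gene of the germ line. For gld-2 the mean was 36.5 ± 2.15 FPKM in N2, against 47.3 ± 1.95 for WLZ1 and 41.8 ± 0.506 for WLZ3. Of the members themselves, glh-4 lay closest to their common profile (0.0285) and deps-1 farthest (0.129).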

How the data were processed

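The authors deposited 1 table of FPKM values for 28749 genes and 9 libraries. The submitters' processing notes list HISAT2 2.2.1, fastp 0.23.2 and featureCounts 2.0.3, with WBcel235 as the build. The FPKM formula and the strand setting are not stated. Gene names and lengths came from the Ensembl annotation of that build, which matched 28503 genes. Reads were recovered from FPKM, exon length and a library total that was itself inferred from the FPKM values. Values within 0.01 of a whole number were taken as whole. pgl-1 needed a length of 2491 bases where the annotation gives 2492.

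Changes were tested on log2(FPKM + 1) in R 4.3.3 by limma 3.58.1, letting the variance follow the mean level, with 1 mean per group over all 9 libraries. The 14862 genes that reached 1 FPKM in 3 or more libraries were tested, two-sided and adjusted by the Benjamini-Hochberg method within each comparison. The code of this test was tested on simulated data. Fold values are ratios of group mean FPKM, and log2 changes understate changes of low genes. Python 3.11.15 with pandas 2.3.3 and numpy 2.4.6 was used otherwise.

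The members and lists were chosen with earlier results of these data known. Of the listed genes 219 were found and 3 were not, and some genes stand in several lists. Text names the members, their paralogues, lin-15B, the 5 nearest genes and, from each list, genes among the 3 largest called changes of a comparison.

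The test reported used no replicate block. Alternatives were other pseudocounts, filters and scalings, a fit of 2 groups, a replicate block and leaving out each library.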

Additional observations from a re-analysis of the deposited data

How the results depend on the processing

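In WLZ1 against N2, 7 of 7 P granule genes were called higher under all alternatives, the replicate block included, with log2 changes of 0.23 (pgl-1) to 0.66 (glh-2). In WLZ3 against N2 the count of 2 became 4 with a filter at a mean of 5 FPKM, 4 with median-of-ratios scaling and 4 in a fit of the 2 groups alone, was 2 with the replicate block, and ranged from 0 to 5 when 1 library was left out. The meg-1 change in that comparison turned to -0.0057 with quantile normalization. Between the strains the count of 5 lower became 3 with no filter, 3 with quantile normalization and 2 with the replicate block, and ranged from 2 to 5 when 1 library was left out. Deviations of same-numbered libraries had correlations of -0.145 to 0.244, and those of differently numbered libraries -0.256 to 0.173. These values showed no common pairing by replicate number, but they cannot exclude one. For the level over germ line reference genes, the count of 0 became 1 when FPKM was scaled by the median of ratios and 2 under quantile normalization, and ranged from 0 to 1 when 1 library was left out. Calls over all genes fell from 10051 to 6469 and from 6259 to 3782 under the 5 FPKM filter, which tests fewer genes, for WLZ1 against N2 and between the strains. For WLZ3 against N2 they fell from 5354 to 3013 and 3204 without N2 replicate 2 or 3. Of the members' single changes under alternatives, 316 kept direction and side of the threshold, 27 lost a call, 13 gained 1 and 1 turned; the cause was not tested. Each member's value rests on at least 3880 recovered reads in every library.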
